A study of Mus musculus with 79 samples.

Results

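The 6 libraries described here come from mouse embryonic fibroblasts on a C57BL/6J background that received the solvent dimethyl sulfoxide (DMSO) and were collected at circadian time 12 (CT12) or 24 (CT24), with 3 libraries at each time. They were chosen by their labels and not by measured values, and they are 6 of the 79 libraries of a study on the enzyme AHCY and the circadian clock. All of these cells, those used for comparison included, had been grown to confluence and exposed for 1 h to dexamethasone at 100 nM, a synthetic glucocorticoid used to bring the clocks of cultured cells into step. The labels give no genotype for the DMSO cells beyond this treatment. For comparison, 6 libraries of fibroblasts that received DZnep, an AHCY inhibitor, at a dose not given in the sources used here, and 6 libraries of fibroblasts without DMSO labelled wild type (WT) in an AHCY editing experiment were used, each with 3 libraries at CT12 and 3 at CT24. The labels call the libraries biological replicates and do not say whether they came from separate embryos, so the p-values measure the spread between these libraries. With 2 times, a difference between CT24 and CT12 is a time difference after synchronization and not a rhythm, and clock time cannot be told apart from the hours passed since the dexamethasone pulse.

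The mammalian clock is a loop of transcription factors. BMAL1 (gene Arntl) and its partner CLOCK or NPAS2 bind E-box sequences and switch on the Per and Cry genes, whose proteins then repress BMAL1 and its partner. The same pair drives the REV-ERB receptors (Nr1d1, Nr1d2), which repress Arntl through ROR response elements, and the PAR bZIP factors DBP, TEF and HLF, which act on D-box sequences of further genes.

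The values were read as FPKM, fragments scaled by transcript length and library size, and a change is given as the difference CT24 minus CT12 of log2(FPKM + 1), which understates the change of genes with low levels. Of 20800 genes listed, 10610 reached 1 FPKM in at least 3 of the 6 libraries and were tested with limma, and a gene was called at a Benjamini-Hochberg adjusted p under 0.05. Summed FPKM ran from 341711 to 366414 in the CT12 libraries and from 258374 to 345448 in the CT24 libraries, and 10458 to 10696 genes reached 1 FPKM in a library. The read depth itself is unknown, but the steps between low values put the libraries at 0.961 to 1.19 times the depth of CT12 replicate 1. Fibroblast marker genes summed to between 4912 and 5968 FPKM in each library, and all but 1 of 14 passed the filter. The marker lists of endothelial, skeletal muscle and epithelial cells summed to at most 2.47, 5.42 and 11 FPKM in any library, and 9 of 10, 9 of 12 and 9 of 10 of their members stayed under 1 FPKM in every library.

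The CT24 libraries spread more than the CT12 libraries. Pearson's r between log2 values over the tested genes averaged 0.9812, 0.9717 and 0.972 between each CT24 library and the others of its group. At CT12 it was 0.9935 to 0.9944. The mean r of CT24 replicate 3 with the CT12 libraries (0.9741) was above its mean with its own group. That own-group mean held a low r with replicate 2 (0.9625), while its r with replicate 1 was at least 0.981. CT24 replicate 2 stood apart in nuclear RNA: Malat1 read 196 FPKM there against 42.1 to 96.5 FPKM in the other 5 libraries, and Neat1 read 426 FPKM against 158 to 232 FPKM. It also held the lowest Ahcy, the enzyme the study is about, at 13.7 FPKM against 28.1 and 32.0 FPKM in the other CT24 libraries and 33.3 to 38.4 FPKM at CT12. Ahcy did not pass the test (log2 change -0.56 ± 0.271 SE, limma adjusted p = 0.145, and -0.21 with adjusted p = 0.129 without CT24 replicate 2). Without CT24 replicate 3 it did pass (-0.76, limma adjusted p = 0.0417).

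Changes between the times moved with transcript length. Tested genes were ranked by their longest annotated transcript and divided into 5 bins of near-equal size. The bin of the shortest transcripts (57 to 1965 bases) had a median log2 change of -0.27, with 111 genes called higher and 630 lower. The bin of the longest (5250 to 23495 bases) had a median of 0.28, with 633 higher and 110 lower. The trend was carried by CT24 replicates 1 and 2, whose bins ran from -0.32 and -0.44 to 0.37 and 0.41 relative to CT12, while replicate 3 ran from -0.06 to 0.05. In the DZnep cells the outer bins had medians of -0.20 and 0.19, and in the WT cells -0.07 and 0.09. The part of length in single results was not tested, but a fit chosen after seeing the data, in which each library's trend with length was flattened, is given beside the results it moves.

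**Figure D1:**
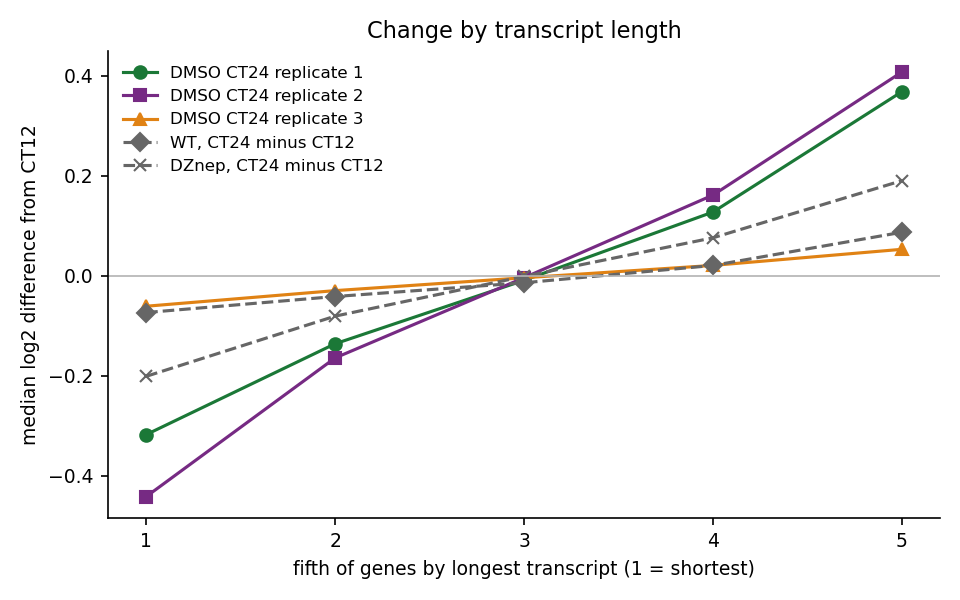
Median log2 difference from CT12 (vertical axis) for 5 bins of tested genes by longest transcript (horizontal axis, 1 the shortest), for each DMSO CT24 library against the CT12 mean and for the WT and DZnep fibroblasts. The lines of CT24 replicates 1 and 2 climb from -0.32 and -0.44 to 0.37 and 0.41, and that of replicate 3 from -0.06 to 0.05.

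Between the times 33.5% of the tested genes differed. At CT24 1667 genes (15.7% of those tested) were higher and 1883 (17.7%) lower, 3550 in all, and 83 of the higher and 163 of the lower differed by at least 2-fold. Unadjusted p-values under 0.05 numbered 4971, and in 5482 genes (51.7%) the 3 CT12 and 3 CT24 values did not overlap. Without CT24 replicate 2, and with the filter redone, 1594 of 10496 genes were higher and 1822 lower (32.5% called). With the values as deposited, without rescaling, the split was 1327 higher and 2275 lower. With length flattened, 1768 were higher and 1933 lower (34.9% called). On the same 10610 genes, 1402 of the 1667 higher and 1613 of the 1883 lower genes were called without CT24 replicate 2 as well, and 1268 and 1552 with length flattened, with 0 turning direction. The numbers depended on single libraries: leaving out CT12 replicate 1, 2 or 3 left 592, 627 or 855 higher and 760, 781 or 1047 lower genes, leaving out CT24 replicate 1 left 894 and 1001, and leaving out CT24 replicate 3 gave 2752 and 2896.

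Most clock genes changed between the times. Of 20 genes of the loop, 19 were listed in the table and 16 were tested, of which 13 rose, 2 fell and Clock did not pass. Of the 16, Per2, Per3 and Bhlhe41 stayed under 1 FPKM at CT12, passed the filter only through CT24 and had to differ. Among the other 13, 10 rose and 2 fell, against 33.5% of all tested genes called. By role, the activators Arntl and Npas2 fell. All 5 Per and Cry genes, both REV-ERB receptors, the 3 PAR bZIP factors, Nfil3 and both DEC repressors rose. Among those that rose are Per2, Per3 and Bhlhe41, which had to differ. The same 15 were called without CT24 replicate 2 on the genes tested in all 6 libraries, and the same number with length, or length and GC content, flattened. These 15 hold Per2, Per3 and Bhlhe41, which the fixed set of genes kept in. With the filter redone without CT24 replicate 2, 13 clock genes were left and 12 were called. In 12 of the 13 that did not enter through CT24 alone, the values at the 2 times did not overlap, against 51.7% of all tested genes.

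**Figure D2:**
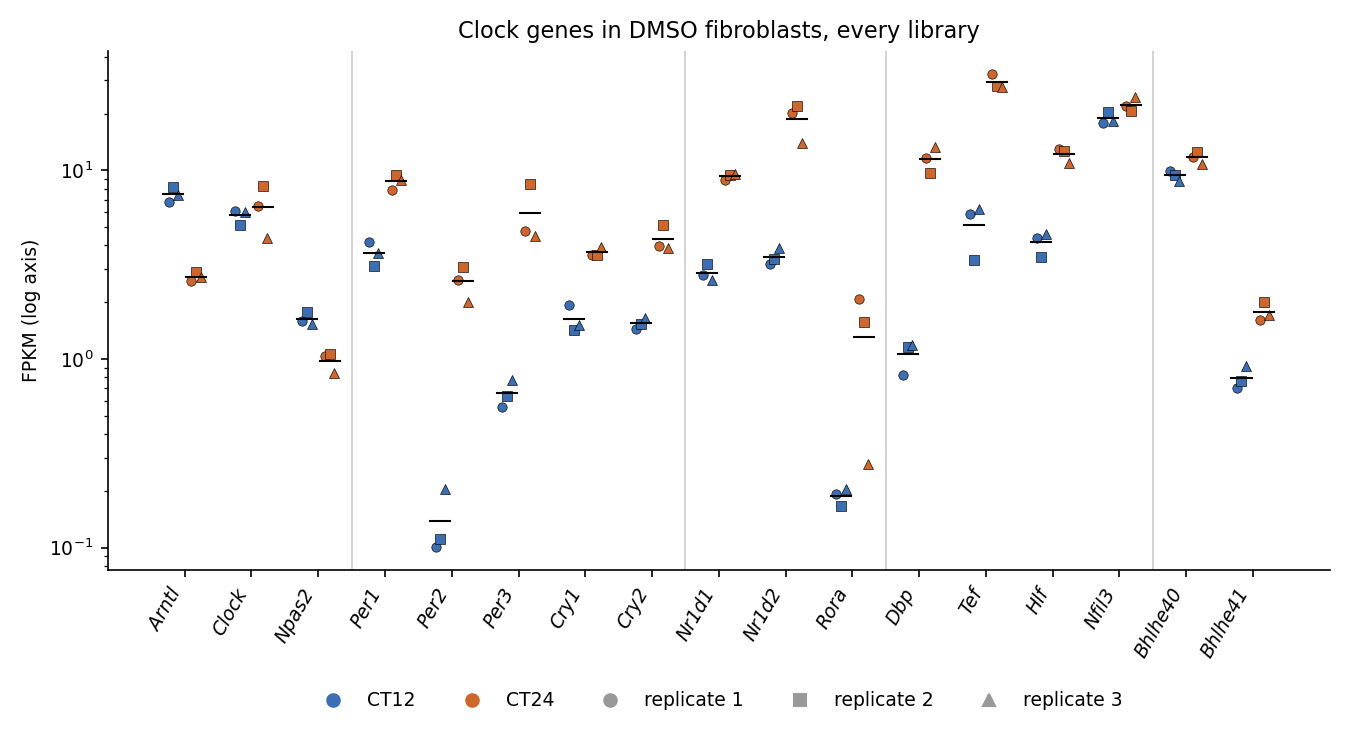
FPKM (log axis) of 17 clock genes in every library of DMSO fibroblasts, with CT12 in blue, CT24 in orange, one marker shape per replicate number and a bar at each group mean. Arntl and Npas2 lie lower at CT24, Clock overlaps, and the genes from Per1 to Bhlhe41 lie higher in each CT24 library than in any CT12 library.

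Among the activators, Arntl read 6.84, 8.15 and 7.43 FPKM in the CT12 libraries and 2.58, 2.90 and 2.72 FPKM in the CT24 libraries. Every CT24 value lay well under every CT12 value, and the log2 change was -1.12 ± 0.0925 (SE, n = 3 per group, limma adjusted p = 0.00142). Npas2, which can stand in for CLOCK, read 1.59, 1.78 and 1.53 FPKM and then 1.04, 1.06 and 0.844 FPKM (log2 change -0.37, limma adjusted p = 0.0293). Its groups did not overlap, but the call was lost without any CT12 library or without CT24 replicate 1 (limma adjusted p from 0.066 to 0.111). Clock read 6.11, 5.15 and 6.04 FPKM at CT12 and 6.45, 8.28 and 4.40 FPKM at CT24. Its highest and its lowest value both came from CT24, and the log2 change was 0.16 ± 0.202 (limma adjusted p = 0.559). Without CT24 replicate 3, the lowest, its change was 0.39 and passed (limma adjusted p = 0.0331).

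All 5 Per and Cry genes rose. Per2 read 0.101, 0.112 and 0.205 FPKM at CT12 and 2.63, 3.09 and 2.02 FPKM at CT24, so it was close to 0 at CT12 and above 2 FPKM in every CT24 library (log2 change 1.67 ± 0.140 SE, limma adjusted p = 0.00142). Mean FPKM was 18.5 times higher at CT24, a ratio that rests on CT12 values close to 0. Per3 read 0.559, 0.637 and 0.776 FPKM and then 4.80, 8.47 and 4.46 FPKM, with CT24 replicate 2 well above the other CT24 libraries (log2 change 2.06 ± 0.214, and 1.81 without that library, limma adjusted p = 0.00184 and 0.00216). Per1, which is also a direct target of the glucocorticoid receptor, read 4.15, 3.13 and 3.66 FPKM and then 7.90, 9.47 and 8.91 FPKM (log2 change 1.14, limma adjusted p = 0.00169). Cry1 read 1.93, 1.43 and 1.51 FPKM at CT12 and 3.56, 3.58 and 3.93 FPKM at CT24, and Cry2 read 1.45, 1.53 and 1.65 FPKM and then 3.96, 5.15 and 3.86 FPKM. Both cryptochrome genes were more than 2-fold higher by mean FPKM (2.27 and 2.80 times), with log2 changes of 0.89 and 1.11 (limma adjusted p = 0.00217 and 0.00204).

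Both REV-ERB receptor genes rose. Nr1d1 read 2.79, 3.20 and 2.62 FPKM at CT12 and 8.90, 9.50 and 9.52 FPKM at CT24, with the CT24 libraries close to each other (log2 change 1.48 ± 0.0883 SE, limma adjusted p = 0.000954). Nr1d2 read 3.17, 3.37 and 3.86 FPKM and then 20.2, 21.9 and 14.0 FPKM (log2 change 2.18 ± 0.178, limma adjusted p = 0.00142), and it was the most abundant receptor gene of this group at CT24. The activating receptor Rora reached 1 FPKM in only 2 libraries and was not tested. It read 0.192, 0.167 and 0.204 FPKM at CT12 and 2.09, 1.56 and 0.279 FPKM at CT24, so CT24 replicate 3 lay just above CT12 while the other two lay far above it. With no filter on low values its log2 change was 0.90 ± 0.331 and did not pass (limma adjusted p = 0.112). Rorb was listed at 0 throughout.

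All 3 PAR bZIP factors rose. Dbp read 0.822, 1.16 and 1.19 FPKM at CT12 and 11.6, 9.69 and 13.3 FPKM at CT24. The groups lay far apart, mean FPKM rose 10.9-fold, and the log2 change was 2.65 ± 0.124 (SE, n = 3 per group, limma adjusted p = 0.000356). Across the 6 fits that left out a library the change lay between 2.56 and 2.76. Tef read 5.87, 3.35 and 6.24 FPKM and then 32.3, 28.0 and 27.5 FPKM, the highest level of the 3 factors at CT24 (log2 change 2.40 ± 0.198, limma adjusted p = 0.00142). Hlf read 4.37, 3.48 and 4.59 FPKM and then 12.9, 12.6 and 10.9 FPKM (log2 change 1.42, limma adjusted p = 0.00142). Nfil3, the repressor that competes for the same D-box, was already at 17.9, 20.5 and 18.3 FPKM at CT12 and read 21.9, 20.7 and 24.4 FPKM at CT24. Its groups were barely separated, the log2 change of 0.30 passed (limma adjusted p = 0.0353), and the call was lost without any CT12 library or CT24 replicate 1 (limma adjusted p from 0.0731 to 0.153) and with the values as deposited (0.106).

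The DEC repressors, which compete with BMAL1 for E-boxes, changed less. Bhlhe40 read 9.96, 9.42 and 8.83 FPKM and then 11.7, 12.6 and 10.8 FPKM (log2 change 0.36, limma adjusted p = 0.0291), and this call too was lost without any CT12 library or CT24 replicate 1 (from 0.0773 to 0.11). Bhlhe41 read 0.699, 0.761 and 0.922 FPKM and then 1.61, 2.01 and 1.72 FPKM (log2 change 0.67, limma adjusted p = 0.00493). Because Per2, Per3 and Bhlhe41 reach 1 FPKM only at CT24, they drop out when a CT24 library is left out and the filter is redone, and 12, 12 and 12 members were called without CT12 replicates 1, 2 and 3 and 9, 12 and 13 without CT24 replicates 1, 2 and 3.

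The promoters show which of the loop's elements lie next to these genes. The sequences are RefSeq windows of GRCm38.p6, the build of the files, from 250 bases before to 50 bases after an annotated start, read 5′ to 3′ on the gene's strand, and 17 of the 20 loop genes had a window. They were searched on both strands for the E-box CACGTG, its variant CACGTT, the D-box as TTATGTAA or TTACGTAA, the ROR element TAGGTCA and the palindromic glucocorticoid response element. These occur in 7.15%, 4.68%, 0.94%, 0.12%, 2.61% and 0.47% of all 32851 windows. Each window shown holds a match, and the other starts of Arntl and Per1 held none. The genes are an activator (Arntl, second start), a repressor with D-boxes (Per3), repressors with E-boxes (Cry1, Per1) and an output factor (Tef, first start). Capitals mark the matches.
Arntl: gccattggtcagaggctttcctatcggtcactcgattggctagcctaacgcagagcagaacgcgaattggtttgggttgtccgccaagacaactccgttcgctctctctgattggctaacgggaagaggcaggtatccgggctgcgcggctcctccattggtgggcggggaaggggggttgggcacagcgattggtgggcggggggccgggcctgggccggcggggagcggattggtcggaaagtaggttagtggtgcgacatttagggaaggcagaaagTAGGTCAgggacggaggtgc
Per3: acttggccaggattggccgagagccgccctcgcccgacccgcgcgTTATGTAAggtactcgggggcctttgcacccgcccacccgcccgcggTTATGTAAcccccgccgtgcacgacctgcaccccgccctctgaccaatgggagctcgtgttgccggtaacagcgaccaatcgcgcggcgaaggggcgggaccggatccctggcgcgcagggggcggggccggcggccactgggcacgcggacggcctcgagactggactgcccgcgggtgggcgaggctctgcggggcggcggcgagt
Cry1: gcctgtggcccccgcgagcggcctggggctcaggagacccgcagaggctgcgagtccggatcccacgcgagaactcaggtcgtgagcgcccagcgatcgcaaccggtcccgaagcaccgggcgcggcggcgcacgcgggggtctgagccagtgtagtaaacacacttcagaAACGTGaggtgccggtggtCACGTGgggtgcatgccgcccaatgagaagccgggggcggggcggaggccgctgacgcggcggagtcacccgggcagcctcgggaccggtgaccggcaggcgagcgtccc
Per1: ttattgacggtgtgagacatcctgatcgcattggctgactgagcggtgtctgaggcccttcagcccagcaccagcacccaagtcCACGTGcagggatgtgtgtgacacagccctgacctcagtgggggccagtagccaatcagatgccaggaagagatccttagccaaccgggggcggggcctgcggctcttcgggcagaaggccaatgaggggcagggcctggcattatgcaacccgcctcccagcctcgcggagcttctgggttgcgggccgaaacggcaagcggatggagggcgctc
Tef: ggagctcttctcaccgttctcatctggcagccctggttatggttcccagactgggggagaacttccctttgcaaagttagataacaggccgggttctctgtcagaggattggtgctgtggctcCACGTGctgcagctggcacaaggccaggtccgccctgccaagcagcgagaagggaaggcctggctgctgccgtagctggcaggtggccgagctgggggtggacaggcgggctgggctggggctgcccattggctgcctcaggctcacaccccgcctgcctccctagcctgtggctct
These windows lie at chr7:113207261-113207560 (plus strand, Arntl), chr4:151044616-151044915 (minus, Per3), chr10:85185005-85185304 (minus, Cry1), chr11:69098699-69098998 (plus, Per1) and chr15:81802423-81802722 (plus, Tef).

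In these windows Per3 held the D-box TTATGTAA at positions -205 and -158 from its start, and no other loop window held a D-box. Cry1 held an E-box at -60 and the variant, as AACGTG, at -79. Per1 held an E-box at -166 of its first start, Tef one at -127 of its first and -138 of its second start, and Bhlhe41 one at -153. Ciart, a repressor not analysed here, held E-boxes at -116, -58 and -44. The variant stood at -166 in Cry2, -28 in Nr1d1 and -234 of the second start of Rorb. The ROR element stood 31 bases after the second start of Arntl, which fell, and at -12 in Nfil3, which rose. The windows of Dbp, Nr1d2, Hlf, Clock, Npas2 and Rora held none of the letters searched, and the glucocorticoid element was in none of the loop windows. A match is a description of the letters and not of binding.

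Of 10 tested kinases, ligases and partners of clock proteins, 1 rose and 1 fell (20.0% called, against 33.5% of all tested genes). Timeless, a replication fork protein, read 20.3, 19.8 and 20.1 FPKM and then 12.7, 12.8 and 15.1 FPKM (log2 change -0.47, limma adjusted p = 0.00658), and Fbxl21, a ubiquitin ligase subunit for cryptochromes, 0.529, 0.625 and 0.702 FPKM and then 1.24, 1.36 and 1.21 FPKM (0.52, 0.00803), a gene that passed the filter only through CT24 and had to differ. Of 13 tested output genes outside the loop, 2 rose and 3 fell, and their 38.5% called was near the share of all genes. Dtx4, a Notch pathway ligase, went from 7.09, 8.23 and 8.76 FPKM to 21.1, 22.9 and 19.7 FPKM (log2 change 1.37, limma adjusted p = 0.00142), and Tars, a tRNA synthetase, went from 53.5, 50.7 and 51.4 FPKM to 31.2, 26.9 and 35.8 FPKM (-0.65, 0.00548).

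Genes of DNA replication were lower at CT24. Of 30 genes of replication and the G1/S transition, 29 fell, 0 rose, and their median log2 change was -1.0, beside 0.01 over all tested genes, of which 17.7% fell. E2f2, chosen here as the exception after its values were seen, read 1.26, 1.09 and 1.08 FPKM and then 0.634, 0.699 and 0.801 FPKM (log2 change -0.29, limma adjusted p = 0.0509). It passed the filter only through CT12, and in all of the other 29 the CT24 values lay under every CT12 value. The groups did not overlap in 51.7% of all tested genes. Medians relative to CT12 were -0.99, -1.23 and -0.74 in CT24 replicates 1, 2 and 3, so each library showed the shift. With length flattened all 30 fell with a median of -0.99, and leaving out any 1 library left 27 to 30.

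Pcna, the sliding clamp of DNA polymerases, read 153, 153 and 135 FPKM at CT12 and 47.4, 39.0 and 66.4 FPKM at CT24 (log2 change -1.47 ± 0.174 SE, limma adjusted p = 0.00234). Cdc6, which loads the replicative helicase, read 8.59, 8.44 and 7.46 FPKM and then 3.01, 2.28 and 3.22 FPKM (-1.20, 0.00159). In both of these every CT24 value lay well under the lowest CT12 value. Ccne2, the S-phase cyclin E2, read 5.72, 5.60 and 4.79 FPKM and then 1.75, 2.15 and 1.96 FPKM (-1.05, 0.00168). Slbp, which binds histone mRNA, read 49.0, 49.4 and 44.8 FPKM and then 25.2, 25.0 and 25.3 FPKM, with CT24 values that hardly differed from each other (-0.82, 0.00169).

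Mitotic genes were lower too, by less. Of 30 tested, 18 fell and 0 rose, with a median of -0.37, while 17.7% of all tested genes fell. With length flattened 22 of the 30 fell. Nuf2, a kinetochore protein, read 24.7, 24.3 and 23.5 FPKM and then 11.1, 11.7 and 14.3 FPKM (log2 change -0.85, limma adjusted p = 0.00206). Ccna2, cyclin A2, read 51.0, 48.7 and 48.3 FPKM and then 28.3, 28.0 and 29.3 FPKM (-0.69, 0.00207). Cdk1, the mitotic kinase, read 86.7, 85.2 and 77.9 FPKM and then 38.3, 34.3 and 49.7 FPKM (-0.95, 0.00337), and Birc5, survivin, 82.1, 94.8 and 82.9 FPKM and then 36.9, 31.1 and 52.6 FPKM (-1.04, 0.00554). The groups of these 4, picked by smallest p, did not overlap. Over the list 24 of 30 did not, against 51.7% of all tested genes. The number that fell was 9, 10 and 12 without CT12 replicates 1, 2 and 3 and 10 without CT24 replicate 1. Whether fewer cells were dividing or each held less of these RNAs cannot be told apart in bulk RNA.

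Ccnd1, cyclin D1, was also lower, at 39.9, 38.1 and 34.2 FPKM and then 19.4, 16.1 and 21.6 FPKM (log2 change -0.87, limma adjusted p = 0.00304), in a list of cyclin D, CDK inhibitor and RB family genes of which 2 rose and 4 fell of 14 (42.9% called). Of 22 tested p53 targets 3 rose and 5 fell, 36.4% called and so near the 33.5% of all tested genes. Sesn1, a stress-induced inhibitor of growth signalling, rose from 32.5, 32.7 and 37.4 FPKM to 56.4, 51.3 and 49.8 FPKM (0.68, 0.00458), and Aen, an apoptotic nuclease, fell from 21.4, 19.1 and 18 FPKM to 10.0, 9.72 and 12.9 FPKM (-0.72, 0.00493). Without one of the CT12 libraries or CT24 replicate 1, the falling p53 targets numbered 1 in each case.

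**Figure D3:**
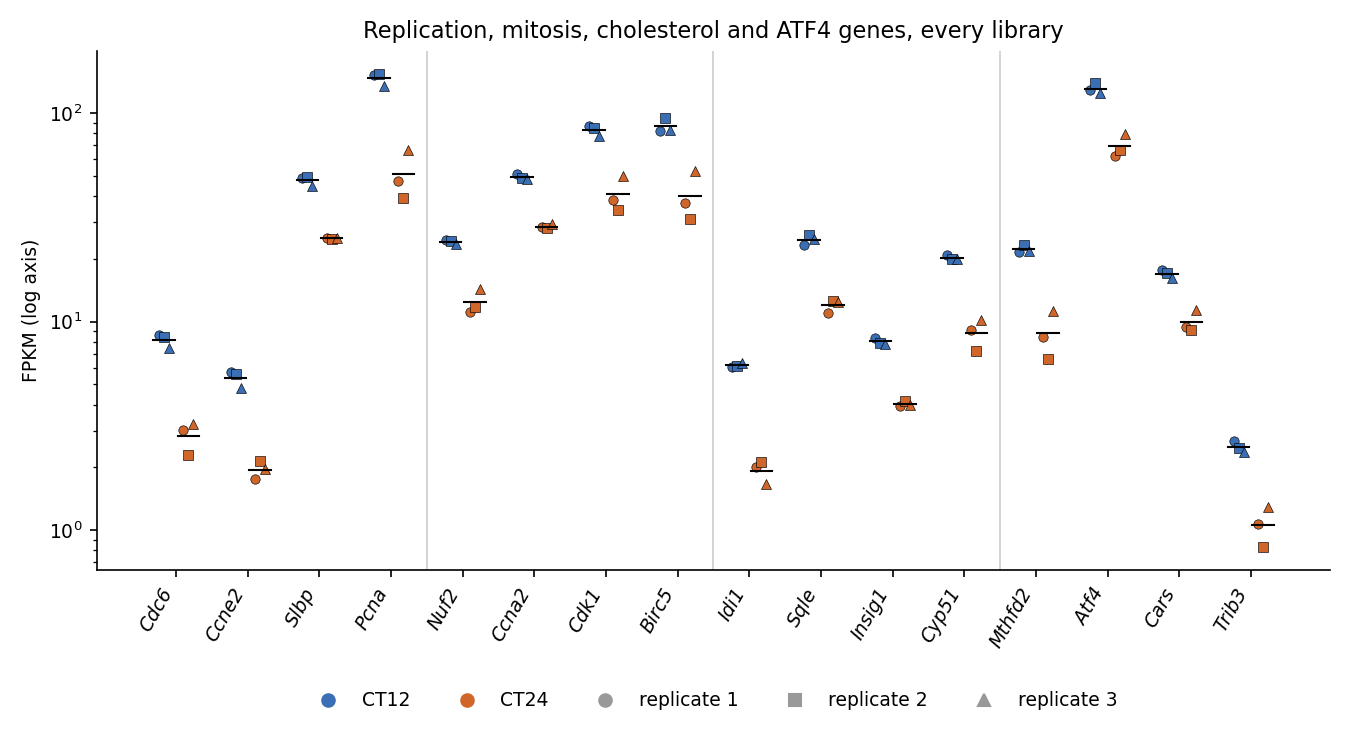
FPKM (log axis) of genes of replication (Cdc6 to Pcna), mitosis (Nuf2 to Birc5), cholesterol synthesis (Idi1 to Cyp51) and the ATF4 list (Mthfd2 to Trib3) in every library, drawn as in the plot of clock genes. Each gene lies lower in all 3 CT24 libraries than in any CT12 library.

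Enzymes of cholesterol synthesis fell together. Of 21 tested, 14 fell (66.7%, against 17.7% of all tested genes) and 0 rose, with a median of -0.51. Among the 14, 1 had passed the filter through a single time. The number was also 14 with length flattened or without CT24 replicate 2, and at least 10 in every fit that left out a library. Idi1, which makes dimethylallyl diphosphate, read 6.09, 6.09 and 6.36 FPKM and then 2.00, 2.12 and 1.66 FPKM (log2 change -1.24, limma adjusted p = 0.00142). Sqle, squalene epoxidase, read 23.2, 26.0 and 24.8 FPKM and then 11, 12.6 and 12.5 FPKM (-0.91, 0.00159), and Cyp51, which demethylates lanosterol, 20.8, 20.0 and 20.0 FPKM and then 9.11, 7.22 and 10.1 FPKM (-1.05, 0.00192). Insig1, which holds the SREBP activators of these enzymes back and is itself their target, read 8.38, 7.94 and 7.84 FPKM and then 3.95, 4.18 and 3.99 FPKM (-0.78, 0.00181). These 4, picked by smallest p, did not overlap between the times. Nor did 15 of the 20 tested genes that passed the filter through more than a single time, against 51.7% of all tested genes. Fatty acid genes did not share one direction, with 6 higher and 4 lower of 17 (35.3% and 23.5%, against 15.7% and 17.7% of all tested genes). Cpt1a, which admits fatty acids to mitochondria, rose from 24.7, 25.6 and 27.0 FPKM to 52.5, 46.8 and 46.8 FPKM (0.96, 0.00168), and Fabp4, a fatty acid carrier and adipocyte marker, fell from 14.9, 16.5 and 12.3 FPKM to 6.87, 5.87 and 7.65 FPKM (-0.93, 0.00327). Fabp4 made up most of the adipocyte marker sum, which ran from 14.2 to 19.0 FPKM at CT12 and 6.32 to 10.0 FPKM at CT24, while 2 of its 8 members were at 0 throughout. Whether adipocyte-like cells had a part in the Fabp4 change was not tested.

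Genes of the amino acid response driven by ATF4 were lower at CT24, with 17 of 24 down and 0 up and a median of -0.60. The share down was 70.8%, against 17.7% of all tested genes. With length flattened 17 fell and 1 rose, and the count fell to 10, 11, 12 and 11 without CT12 replicates 1, 2 and 3 and CT24 replicate 1. Atf4 itself read 129, 139 and 124 FPKM and then 62.1, 66.8 and 79.5 FPKM (log2 change -0.84, limma adjusted p = 0.003). Mthfd2, a mitochondrial folate enzyme, read 21.7, 23.3 and 21.8 FPKM and then 8.47, 6.62 and 11.3 FPKM (-1.21, 0.00283). Cars, the cysteine tRNA synthetase, read 17.7, 17.1 and 16.2 FPKM and then 9.40, 9.09 and 11.4 FPKM (-0.65, 0.0038), and the pseudokinase gene Trib3 went from 2.67, 2.48 and 2.37 FPKM to 1.07, 0.832 and 1.29 FPKM (-0.73, 0.00417). None of these, picked by smallest p, overlapped between the times. Over the list 18 of 24 did not overlap, against 51.7% of all tested genes.

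Chaperone genes were lower at CT24 or did not pass. Of 20 heat shock chaperones 10 fell and 0 rose, while 17.7% of all tested genes fell. With length flattened 11 fell and 1 rose. Leaving out any 1 library left 7 to 11 that fell. Hspd1, the mitochondrial chaperonin, read 329, 324 and 305 FPKM and then 153, 144 and 173 FPKM (log2 change -0.95, limma adjusted p = 0.00253). Hsph1 read 57.2, 54.6 and 53 FPKM and then 30.7, 26.7 and 32.6 FPKM (-0.78, 0.00241), and Hsp90aa1 read 288, 276 and 269 FPKM and then 143, 157 and 154 FPKM (-0.79, 0.00338). Of 20 genes of the endoplasmic reticulum's unfolded protein response 7 fell and 0 rose (35.0% called, near the share of all genes), among them the disulfide isomerase Pdia6 at 309, 323 and 300.5 FPKM and then 169, 163 and 219 FPKM (-0.69, 0.00939). That list kept 0, 0, 1 and 1 calls without CT12 replicates 1, 2 and 3 and CT24 replicate 1.

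In a list of the methionine cycle, where AHCY works, with transsulfuration and polyamine genes, 6 of 15 tested genes fell and 1 rose. These were 40.0% and 6.7%, against 17.7% and 15.7% of all tested genes. The 4 genes given next belong to polyamine, cysteine and salvage steps, and Ahcy itself did not pass. Amd1, which makes decarboxylated S-adenosylmethionine for polyamines, read 20.9, 20.7 and 20.2 FPKM and then 10.5, 10.8 and 12.2 FPKM (log2 change -0.76, limma adjusted p = 0.00179). Odc1, the first enzyme of polyamine synthesis, read 41.6, 43.8 and 37.5 FPKM and then 21.2, 15.6 and 26.0 FPKM (-0.89, 0.00777). Cth, which makes cysteine, read 3.96, 4.30 and 4.19 FPKM and then 1.86, 2.15 and 2.14 FPKM (-0.70, 0.00258), and Mtap, which salvages methionine from polyamine synthesis, 39.3, 42.0 and 39.7 FPKM and then 26.7, 22.5 and 28.8 FPKM (-0.55, 0.00743). All 4, picked by smallest p, were separated between the times, as were 12 of the 15 tested in the list, against 51.7% of all tested genes.

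Of 21 tested secreted inflammatory genes 9 fell, 1 rose and 11 did not pass (42.9% lower, against 17.7% of all tested genes). Their median of -0.34 became -0.15 with length flattened, when 8 fell and 2 rose. Ccl2, a monocyte chemokine, read 291, 283 and 266 FPKM and then 97.4, 93.2 and 129 FPKM (log2 change -1.33, limma adjusted p = 0.00179), and its neighbour in function Ccl7 read 422, 439.9 and 390.0 FPKM and then 145, 145 and 204 FPKM (-1.28, 0.00242). Ptx3, a soluble pattern receptor, read 16.6, 14.6 and 12.4 FPKM and then 4.19, 3.93 and 6.05 FPKM (-1.39, 0.00207), and Ptgs2, the inducible cyclooxygenase, 26.2, 25.1 and 23.2 FPKM and then 11, 12.4 and 8.13 FPKM (-1.11, 0.00395). None of these 4 overlapped between the times, but they were picked by smallest p. Over the list 15 of 21 did not overlap, against 51.7% of all tested genes. C3, the complement protein that rose and was named after its values were seen, went from 286, 289 and 308 FPKM to 467, 445 and 409 FPKM (0.65, 0.0117). Macrophage and leukocyte markers summed to between 10.4 and 16.4 FPKM in each library, and 5 of the 10 listed were at 0 in all of them.

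Targets of the glucocorticoid receptor, which the synchronizing pulse engages, went both ways, with 5 higher and 4 lower of 17 tested. These were 29.4% and 23.5%, against 15.7% and 17.7% of all tested genes. Besides Per1, Fkbp5, an immunophilin of the receptor complex, rose from 12.5, 12.9 and 12.9 FPKM to 15.9, 16.6 and 16.6 FPKM (log2 change 0.40, limma adjusted p = 0.00743, and 0.0517 without CT12 replicate 1). Sgk1, a kinase, fell from 75.2, 67.1 and 64.0 FPKM to 42.2, 31.8 and 43.1 FPKM (-0.74, 0.0074). The metallothionein gene Mt2 fell from 248, 285 and 221 FPKM to 103, 126 and 142 FPKM (-0.95, 0.00496), a call that was lost with length flattened (-0.45, 0.0624). Immediate early genes divided as well, with 4 higher and 8 lower of 23 (17.4% and 34.8%). Among the 21 that did not pass the filter through a single time, 3 were higher and 7 lower. Myc fell from 31.2, 29.7 and 26.5 FPKM to 15.1, 14.4 and 18.2 FPKM (-0.77, 0.00327), Fosl1 from 11, 10.9 and 8.47 FPKM to 4.74, 4.58 and 5.29 FPKM (-0.85, 0.00308) and Dusp6, a phosphatase of ERK kinases, from 7.27, 7.21 and 6.38 FPKM to 3.64, 2.97 and 3.79 FPKM (-0.77, 0.003). The nuclear receptor gene Nr4a1 rose from 3.09, 3.01 and 2.32 FPKM to 4.44, 5.18 and 5.33 FPKM (0.71, 0.00492). Leaving out a library gave 1 to 7 higher glucocorticoid targets and 1 to 5 higher immediate early genes.

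Contractile and matrix genes went both ways. Tagln, a smooth muscle actin-binding protein, fell from 149, 146 and 131 FPKM to 33.7, 22.7 and 51.9 FPKM (log2 change -1.95 ± 0.249 SE, limma adjusted p = 0.00291). Its fall was -1.67 without CT24 replicate 2. Actg2, smooth muscle gamma actin, fell from 2.94, 3.45 and 2.64 FPKM to 0.850, 0.568 and 1.05 FPKM (-1.10, 0.00233). Other targets of the serum response factor rose: Vcl, vinculin of focal adhesions, went from 30.9, 28.9 and 32.2 FPKM to 59.6, 50.2 and 48.9 FPKM (0.84, 0.00328) and Lmod1, which nucleates actin filaments, from 0.610, 0.716 and 0.724 FPKM to 1.58, 1.56 and 1.85 FPKM (0.70, 0.00311). Lmod1 passed the filter only through CT24 and had to differ. Of the 19 tested in that list 6 rose and 6 fell, with a median of 0.03. Each was 31.6%, against 15.7% higher and 17.7% lower of all tested genes. Among the 18 that did not pass the filter through a single time, 5 rose and 6 fell.

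Of 17 tested collagens 4 rose and 0 fell, 23.5% called against 33.5% of all tested genes, with a median of 0.27 that became 0.04 with length flattened, when 4 rose and 1 fell. Col6a3 went from 7.65, 6.91 and 9.20 FPKM to 20.6, 24.1 and 14.3 FPKM (log2 change 1.26, limma adjusted p = 0.00521, and 0.88 with length flattened). The collagen count was 1, 1, 2 and 2 without CT12 replicates 1, 2 and 3 and CT24 replicate 1 and 9 without CT24 replicate 3. Ogn, osteoglycin, a small matrix proteoglycan, rose from 40.0, 42.9 and 50.3 FPKM to 114, 168 and 96.1 FPKM (1.53, 0.00378) in a list of 19 matrix glycoproteins and proteoglycans with 5 up and 2 down. That list's 36.8% called was near the share of all genes, and its median of 0.21 became -0.01 with length flattened. Of 16 tested matrix proteases and inhibitors only 2 rose and 1 fell (18.8% called, under the 33.5% of all tested genes). Mmp2, gelatinase A, rose from 212, 229 and 239 FPKM to 377, 426 and 392 FPKM (0.89, 0.00388). Timp1, an inhibitor of such proteases and the 1 that fell, went from 285, 314 and 249 FPKM to 117, 104 and 159.7 FPKM (-1.09, 0.00476).

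Growth factor pathway genes were called both ways. In the IGF system 6 of 10 tested genes rose and 2 fell (6 and 1 of the 9 that did not pass the filter through a single time), with a median of 0.66 that became 0.34 with length flattened. Igfbp4 rose from 72.2, 80.5 and 74.4 FPKM to 141, 125 and 152 FPKM (log2 change 0.94, limma adjusted p = 0.00207), Irs2, an adaptor of insulin and IGF receptors, from 6.10, 5.50 and 7.12 FPKM to 12.6, 11 and 10.7 FPKM (0.85, 0.00349) and Igf2r from 25.3, 23.0 and 27.5 FPKM to 55.3, 51.9 and 39.1 FPKM (0.98, 0.00525). Igfbp7 fell from 75.1, 77.6 and 73.1 FPKM to 37.0, 29.2 and 48.1 FPKM (-0.92, 0.00628). In the TGF-beta and BMP list 5 rose and 3 fell of 19 (26.3% and 15.8%). The share that fell was under the 17.7% of all tested genes. The 3 that fell were the BMP-responsive repressors of bHLH factors Id2, Id1 and Id3. Id2 fell from 13.8, 13.0 and 11.4 FPKM to 3.31, 2.41 and 3.64 FPKM (-1.68 ± 0.130 SE, limma adjusted p = 0.00142), Id1 from 21.5, 21.7 and 18.3 FPKM to 6.80, 6.27 and 9.05 FPKM (-1.30, 0.00168), and Id3 from 142, 138 and 113 FPKM to 51.3, 44.1 and 68.5 FPKM (-1.19, 0.00344). These 3 were called in every fit that left out 1 library. Smad3, which relays TGF-beta signals, rose from 10.9, 10.8 and 11.4 FPKM to 17.1, 16.6 and 15.6 FPKM (0.61, 0.00376).

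Glycolytic and hypoxia genes were lower in 11 of 26 and higher in 2, with a median of -0.28. Those lower made up 42.3%, against 17.7% of all tested genes, and those higher 7.7%, against 15.7%. Higd1a, a mitochondrial hypoxia-induced protein, fell from 25.7, 29.1 and 21.8 FPKM to 7.73, 7.84 and 11.3 FPKM (log2 change -1.36, limma adjusted p = 0.00207) and Pfkl, the liver-type phosphofructokinase, from 114, 111 and 101 FPKM to 54.6, 53.3 and 66.8 FPKM (-0.82, 0.00308). The count was 3, 3 and 5 without CT12 replicate 1, CT12 replicate 2 and CT24 replicate 1.

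Ribosomal protein and respiratory chain genes, most of them short and abundant mRNAs, differed between the CT24 libraries. Of 30 cytosolic ribosomal protein genes limma called 0, with 3 at an unadjusted p under 0.05, 0 also called without CT24 replicate 2 and 1 higher with length flattened, although their median was -0.36, and 16 fell without CT24 replicate 3. That median was -0.29, -0.89 and 0.09 in CT24 replicates 1, 2 and 3 and -0.05 with length flattened. Only 3 of the 30 had groups that did not overlap, against 51.7% of all tested genes. Of 26 nuclear genes of the respiratory chain 8 fell, with a median of -0.49 that lay at -0.47, -0.84 and -0.09 in the 3 libraries and at -0.21 with length flattened, when 5 fell (30.8% called, under the share of all genes). Without a CT12 library or CT24 replicate 1 the count of respiratory genes was 0, and without CT24 replicate 3 it was 20.

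Counts of other lists also rested on single libraries. Without CT12 replicate 1, CT12 replicate 2, CT12 replicate 3 and CT24 replicate 1 the inflammatory genes that fell numbered 5, 4, 6 and 5, and the contractile genes that fell numbered 3 in each. The IGF genes that rose numbered 3, 3 and 4 without CT12 replicates 1 and 2 and CT24 replicate 1. The TGF-beta and BMP genes that rose numbered 2 and 3 without CT12 replicates 1 and 2 and 9 without CT24 replicate 3. The matrix glycoproteins that rose numbered 2 without CT12 replicate 1 and 10 without CT24 replicate 3. The fatty acid genes that fell numbered 2 without any 1 of the CT12 libraries.

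**Figure D4:**
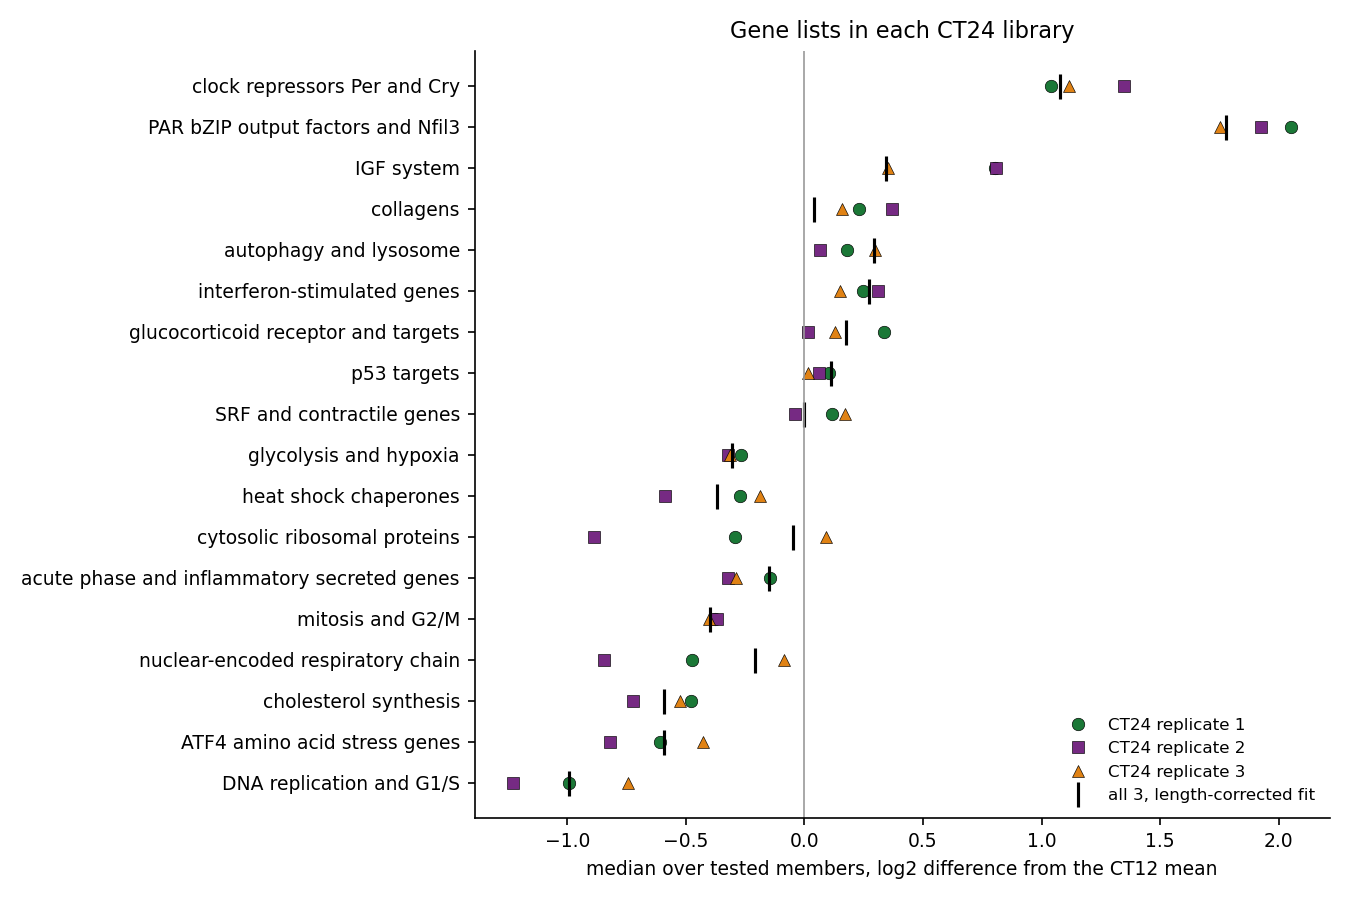
Median log2 difference from the CT12 mean over the tested members of 18 gene lists, for each CT24 library (symbols) and for the fit with transcript length flattened (vertical ticks). Replication lies between -0.74 and -1.23 in all 3 libraries, while ribosomal proteins spread from -0.89 to 0.09.

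The genes with the largest changes outside these lists, by the naming rule, were mixed in function. Dab2ip, a Ras GTPase-activating protein, rose from 0.659, 0.587 and 1.90 FPKM to 10.3, 8.33 and 9.69 FPKM (log2 change 2.45 ± 0.226 SE, limma adjusted p = 0.00159). The retinaldehyde dehydrogenase genes Aldh1a1 and Aldh1a7, near-identical neighbours that could share reads, rose together. Aldh1a1 read 3.49, 4.11 and 3.91 FPKM and then 17.3, 17.3 and 18.2 FPKM (2.01 ± 0.0814, 0.000245), and Aldh1a7 5.17, 5.68 and 5.96 FPKM and then 17.9, 16.4 and 19.9 FPKM (1.60, 0.000917). Ces1a, a carboxylesterase of a gene cluster, rose by 1.80 and Fndc1, an activator of G-protein signalling, by 1.66. Sesn3, a stress-induced inhibitor of growth signalling, read 18.4, 14.4 and 21.0 FPKM and then 63.5, 85.1 and 30.8 FPKM, so its CT24 values differed among themselves by more than those at CT12 (1.66 ± 0.358, 0.0134), and its call was lost without CT12 replicate 1, CT12 replicate 2 or CT24 replicate 1 (0.0506 to 0.0581). Bmf, a BH3-only apoptosis gene, rose from 5.04, 4.80 and 6.15 FPKM to 16.9, 14.9 and 14.7 FPKM (1.45, 0.00142).

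The largest falls by the same rule included the following genes. Dctpp1, which hydrolyses dCTP, fell from 44.5, 44.9 and 39.5 FPKM to 11.6, 6.16 and 17.0 FPKM (log2 change -1.83 ± 0.286 SE, limma adjusted p = 0.00493, and -1.37 with length flattened). Dtymk, thymidylate kinase, fell from 75.2, 81.5 and 71.9 FPKM to 20.7, 17.4 and 30.7 FPKM (-1.65, 0.00192), Tk1, thymidine kinase, from 71.7, 68.5 and 61.5 FPKM to 18.1, 15.7 and 28.9 FPKM (-1.61, 0.00242), and Nme1, nucleoside diphosphate kinase, from 152, 162 and 137 FPKM to 43.0, 31.8 and 70.0 FPKM (-1.62, 0.00453). CT24 replicate 2 was the lowest and replicate 3 the highest CT24 library in all 4. Every CT24 value lay under every CT12 value, which the naming rule required. Tfrc, the transferrin receptor, fell evenly from 29.7, 27.3 and 26.6 FPKM to 8.43, 9.03 and 7.68 FPKM (-1.55 ± 0.0992, 0.000954). Nop56, of the box C/D ribonucleoproteins that modify ribosomal RNA, fell from 53.1, 55.8 and 47.8 FPKM to 15.1, 16.7 and 20.9 FPKM (-1.45, 0.00142). The cytokine receptor gene Tnfrsf12a fell by 1.82 and Timm8a1, of the mitochondrial import machinery, by 1.47 on the log2 scale.

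In WT fibroblasts of another experiment, which share no library with these, 41.7% of 12206 tested genes were called between the same times. Of the 1629 genes higher in DMSO cells and tested there, 1102 were higher in WT cells (67.6% of the DMSO genes and 51.2% of the 2153 WT genes) and 17 lower. Of 1855 lower genes 1428 were lower in WT cells (77.0%, and 56.7% of 2518) and 13 higher. Changes correlated with r = 0.693 over 10408 genes, which are not independent replicates. In DZnep fibroblasts 55.5% of 10519 tested genes were called, 1189 of 1555 higher and 1512 of 1879 lower DMSO genes moved the same way (76.5% and 80.5%, and 41.8% and 52.2% of the DZnep lists), and r was 0.766 over 10295 genes. All clock genes called in WT cells, 14 of the 16, had the direction seen in DMSO cells. The replication list fell in all 30 members in WT cells with a median of -0.47, and in 24 with DZnep with a median of -0.26.

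Differences of the changes between experiments were tested in 1 model over 12 libraries. Against DZnep, 674 of 10882 genes differed (6.19%), among them 6 clock genes of 16. The log2 change in DMSO cells minus that with DZnep was 1.47 for Dbp, 1.18 for Per3, 0.96 for Tef and 0.85 for Per2. It was 1.42 for Cry1 and 0.50 for Nfil3, which rose in DMSO cells but were called lower at CT24 with DZnep. These 6 differences (limma adjusted p from 6.35e-05 to 0.0399) were each called without CT24 replicate 2 as well. Of the 30 replication genes 22 differed. Against WT, 518 of 11500 genes differed (4.50%), including Per2, Cry1, Arntl and Nr1d1. In this test, made before the change of unit described next, 11 of the 30 replication genes differed. The WT values are in TPM, a larger unit to which the same 1 was added, and with the DMSO values turned into TPM 650 of 11968 differed (5.43%), 496 of them in both. In the common unit only Nr1d1 remained of the clock genes: its rise was 0.77 ± 0.109 (SE) larger in DMSO cells (limma adjusted p = 0.00514), while the differences were 0.08 for Per2 (0.828), -0.43 for Cry1 (0.0894) and 0.22 for Arntl (0.219). Leaving out single libraries moved these counts between 328 and 1878 for DZnep and between 240 and 3378 for WT.

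**Figure D5:**
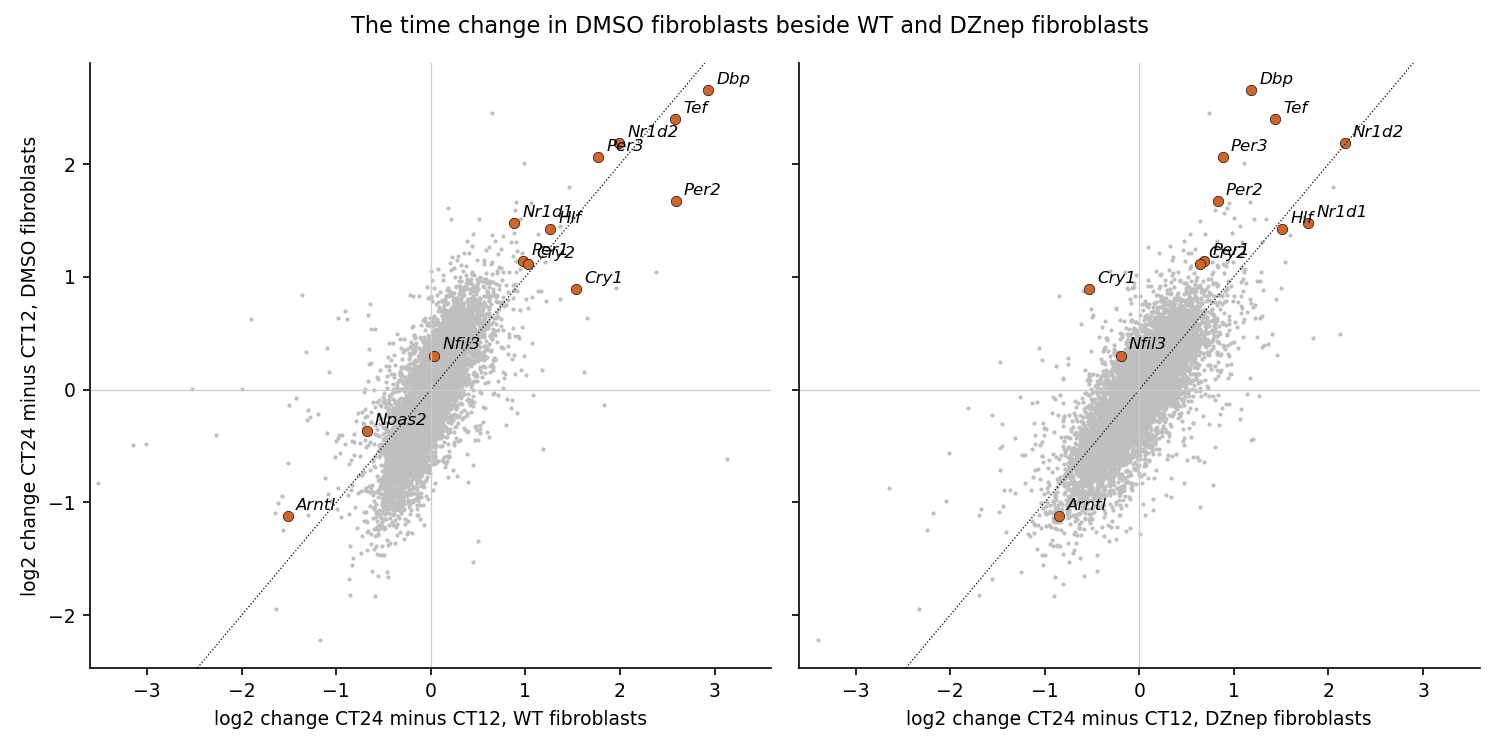
Log2 change CT24 minus CT12 in DMSO fibroblasts (vertical axes) against that in WT fibroblasts (left) and DZnep fibroblasts (right), one point per gene tested in both, with clock genes in orange and the line of equal change dotted. Cry1 lies at 0.89 in DMSO cells and 1.53 in WT cells but at -0.53 in DZnep cells.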

How the data were processed

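RNA was extracted with TRIzol and sequenced from TruSeq v2 libraries, per the labels' protocols. Cufflinks 2.2.1, TopHat2 2.1.1, Trimmomatic 0.36, bcl2fastq 2.18.0.12 and the mm10 genome are named in the submitters' processing notes. The deposited values per gene were read as FPKM in the DMSO and DZnep tables and as TPM in that of WT cells, from their library sums, although the design had assumed the same unit. No source used here states the annotation or the strand setting, so overlapping, antisense and near-identical genes are uncertain.

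Each table was rescaled by median ratios of genes that reach 1 in all its libraries, and log2(value + 1) was tested with trended limma (version 3.58.1, R 4.3.3). Differences of changes used 12 libraries. Levels are printed as deposited.

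The members, tests and 45 gene lists with 742 entries, of which 726 matched, were chosen with earlier results of these data known. Named genes are the clock loop, up to 10 called genes each way with the largest change, a mean of 5 or more and no overlap, up to 5 more without CT24 replicate 2, up to 4 called members per list with the smallest p, up to 6 each with the largest difference from DZnep and from WT, and Malat1, Neat1 and Ahcy. Some genes that this rule or these lists hold are not reported here. Gene models and lengths come from GENCODE on GRCm38, the build of mm10. Length trends were flattened per library by lowess (span 0.3). Alternatives were another pseudocount, other scalings, filters and weights, a replicate block, and leaving out each library. The tests were first run on simulated data.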

Additional observations from a re-analysis of the deposited data

Results flagged for a closer look

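The time change differed between the DMSO fibroblasts and another experiment, by a limma test of the difference itself, in the genes given here as log2 changes in DMSO cells minus those in the other cells. Against DZnep, the differences were 1.47 for Dbp, 1.42 for Cry1, 1.18 for Per3, 0.96 for Tef, 0.85 for Per2 and 0.50 for Nfil3 among the clock genes. Outside the clock they were 1.78 for Cck, a neuropeptide gene, and 1.46 for Ctgf, a matricellular growth regulator. They were -1.63 for Rffl, a ubiquitin ligase, and -1.63 for Serpina3n, a secreted protease inhibitor. Cck did not pass the test within the DMSO cells (log2 change -0.87, limma adjusted p = 0.0672), and its log2 change with DZnep was -2.65.

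Against WT cells, the differences were 0.39 for Arntl, -0.64 for Cry1, -0.92 for Per2 and 0.59 for Nr1d1, and those of Arntl, Cry1 and Per2 did not pass once the DMSO values were in TPM. The other differences passed in both units. They were 1.80 for Dab2ip, -1.71 for Egr1, an immediate early transcription factor, 1.61 for Plcb3, a phospholipase, 1.60 for H6pd, a dehydrogenase of the endoplasmic reticulum, 1.46 for Myl9, a myosin light chain, and -1.15 for Nme1. Plcb3, H6pd and Egr1 were called in opposite directions in the 2 experiments: their log2 changes were 0.63, 0.69 and -0.52 in DMSO cells and -0.98, -0.91 and 1.18 in WT cells. The DMSO call of Egr1 was lost without CT12 replicate 1 or 2 (limma adjusted p = 0.0602 and 0.0558). The experiments were deposited as separate tables, and what else differed between them was not tested.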

How the results depend on the processing

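Across all alternatives no named gene that was called turned direction. Counts of higher and lower genes were 83 and 163 with a log2 change of at least 1, 4214 and 4063 with library weights, an estimate that stopped before convergence and gave weights of 15.7 to CT24 replicate 1 and 0.161 and 0.147 to replicates 2 and 3, and 2929 higher when the 12 DMSO and DZnep libraries shared their spread. Leaving out a library gave 592 to 2752 higher and 760 to 2896 lower genes, 9 to 13 clock members called, 328 to 1878 genes that differed from DZnep and 240 to 3378 that differed from WT. With a mean of 5 or more, 9 clock members were called, because fewer were tested. Deviations of same-numbered libraries from their group means correlated at 0.077, -0.285 and -0.453. Deviations from a mean of 3 are tied to each other, so these values cannot decide whether the numbers pair the libraries. The meaning of the numbers is not given in the sources used here. With the replicate block 882 genes were higher, 1066 lower, 12 clock members called, 121 genes differed from DZnep and 12 from WT. Of 150 named genes that were called, 104 were called in every fit that left out a library, 40 were lost in at least 1, and 6 (Per2, Per3, Bhlhe41, Fbxl21, Lmod1 and Irf7) were not tested without a CT24 library. Fits without a library hold fewer samples, and the cause of the other shifts was not tested. The fits with length or GC content flattened, without CT24 replicate 2 on the same genes, and with DMSO values as TPM (650 genes that differed from WT) were chosen after seeing the data. The filter at 1 FPKM and the unknown depth limit what can be said of Rora and Per2 at CT12.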

Other observations

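Genes of autophagy and the lysosome were called only upward, with 6 of 20 higher at CT24 (30.0%, against 15.7% of all tested genes higher and 33.5% called), 8 without CT24 replicate 2 and 11 with length flattened. Wipi1, which acts in autophagosome formation, read 17.4, 17.2 and 19.0 FPKM at CT12 and 29.2, 25.9 and 27.3 FPKM at CT24 (log2 change 0.66, limma adjusted p = 0.00317). Npc1, which exports cholesterol from lysosomes, read 10.7, 11.1 and 11.5 FPKM and then 17.1, 17.2 and 15.2 FPKM (0.60, 0.00473), and the kinase gene Ulk1 read 8.74, 8.46 and 8.92 FPKM and then 12.2, 14.2 and 11.8 FPKM (0.56, 0.00707). None of these, picked by smallest p, overlapped between the times. Over the list 10 of 20 did not overlap, near the 51.7% of all tested genes. Without CT12 replicate 1 or CT12 replicate 2 the count of higher genes was 3.

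Of 15 tested interferon-stimulated genes 5 rose and 0 fell, 33.3% called against 33.5% of all tested genes. Of these 15, 2 passed the filter through a single time, Irf7 among them, which had to differ, and 3 of the other 13 rose. Leaving out a library gave 3 to 5 that rose. Ifit3 read 1.34, 1.27 and 1.12 FPKM and then 2.78, 2.81 and 2.74 FPKM (log2 change 0.80, limma adjusted p = 0.00217), Stat2, a transcription factor of the interferon response, 8.42, 8.40 and 9.62 FPKM and then 12.8, 14.7 and 12.5 FPKM (0.61, 0.00607), and Irf7 0.946, 0.672 and 0.910 FPKM and then 2.09, 1.61 and 1.78 FPKM (0.66, 0.00667). Of 19 tested genes of the NRF2 and glutathione list 2 rose and 4 fell (31.6% called, under the 33.5% of all tested genes), and without CT24 replicate 3, 10 fell. Txn1, thioredoxin, read 181, 199.6 and 171 FPKM and then 90.6, 89.2 and 126 FPKM (-0.78, 0.00787), and the glutathione transferase gene Gsta4 read 3.86, 4.20 and 3.04 FPKM and then 6.07, 5.53 and 7.57 FPKM (0.71, 0.00774).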
